A study of Rattus norvegicus with 12 samples.

Results

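The exosome biogenesis and vesicle traffic genes described here are 10 genes of the rat: Sdcbp, Pdcd6ip, Tsg101, Rab7a, Rab11a, Rab27a, Rab27b, Flot1, Flot2 and Lamp1. They are listed by gene symbol, and the array annotation assigned 1 probe to each. They make 10 of 21946 probes, or 10 of 12925 named genes. The 12 Illumina arrays lay on 1 chip and measured total RNA after biotin labelling. ASML is a metastasizing rat pancreatic adenocarcinoma line. Exosomes, the small vesicles that cells shed, were taken from ASML cells in which CD44v, the variant isoforms of CD44, was knocked down (kd exosomes, 3 arrays), or from ASML cells without the knockdown (wt exosomes, 3 arrays). B12 is a rat line of lymph node stroma. Its cells were given kd exosomes for 24 h, given wt exosomes for 24 h, or left untreated, with 2 arrays in each group. The labels do not say how the knockdown was made, whether it is 1 clone, or whether replicates are separate cultures. All p-values therefore measure the spread between these samples, which may be technical.

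Exosomes form as vesicles that bud into a late endosome, which then becomes a multivesicular body. Such a body can fuse with the plasma membrane and release its vesicles, or fuse with a lysosome and have them degraded. Syntenin (Sdcbp) links syndecans to ALIX (Pdcd6ip), and ALIX and the ESCRT-I subunit Tsg101 bring in the ESCRT machinery that cuts the vesicles off. The small GTPases Rab7a, Rab11a, Rab27a and Rab27b steer endosomes to lysosomes, through recycling and to the cell surface. Flotillins (Flot1 and Flot2) are scaffolds of lipid rafts, and Lamp1 is a heavily glycosylated protein of the lysosomal membrane. The arrays measured the messenger RNA of these genes, not the proteins and not the number of vesicles.

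RefSeq promoter windows (GRCr8, 250 bases before to 50 bases after the gene start of the table) were matched for 9 of the 10 genes, all but Sdcbp. The windows of the 5 genes that passed the test between B12 replicate numbers are printed 5′ to 3′. Capitals mark exact matches, on either strand, to the GC box GGGCGG, the CCAAT box CCAAT, the E-box CACGTG or the TATA box TATAAA, and no matches of different motifs overlapped. For all 5 genes printed here the start used by the table lies inside the annotated span of the gene. The windows of Flot1 and Flot2 include the 5′ end of that span. Those of Rab27b, Lamp1 and Rab7a, on the minus strand, do not. Their spans reach to 66069597, 83082843 and 122068067, so these windows may not be the main promoter.
Lamp1 (chr16:83075014-83075313, minus strand): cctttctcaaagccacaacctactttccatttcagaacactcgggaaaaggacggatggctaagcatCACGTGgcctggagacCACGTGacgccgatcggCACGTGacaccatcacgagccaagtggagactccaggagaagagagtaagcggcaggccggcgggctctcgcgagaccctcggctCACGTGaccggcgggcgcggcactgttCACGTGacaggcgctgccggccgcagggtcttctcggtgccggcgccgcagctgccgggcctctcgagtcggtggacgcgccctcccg
Rab7a (chr4:122064136-122064435, minus strand): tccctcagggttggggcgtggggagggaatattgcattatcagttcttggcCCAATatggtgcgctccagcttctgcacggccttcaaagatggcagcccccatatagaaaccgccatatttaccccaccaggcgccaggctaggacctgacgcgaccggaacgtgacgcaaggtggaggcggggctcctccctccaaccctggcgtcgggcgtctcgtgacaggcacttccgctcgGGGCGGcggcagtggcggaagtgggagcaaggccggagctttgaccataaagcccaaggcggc
Flot1 (chr20:2932722-2933021, minus strand): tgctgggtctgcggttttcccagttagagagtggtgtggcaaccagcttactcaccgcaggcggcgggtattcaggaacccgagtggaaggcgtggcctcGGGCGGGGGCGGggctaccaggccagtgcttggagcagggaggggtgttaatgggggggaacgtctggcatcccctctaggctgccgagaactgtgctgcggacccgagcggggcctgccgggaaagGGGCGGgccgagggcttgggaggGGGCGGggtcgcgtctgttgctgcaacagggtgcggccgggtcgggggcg
Flot2 (chr10:63423850-63424149, plus strand): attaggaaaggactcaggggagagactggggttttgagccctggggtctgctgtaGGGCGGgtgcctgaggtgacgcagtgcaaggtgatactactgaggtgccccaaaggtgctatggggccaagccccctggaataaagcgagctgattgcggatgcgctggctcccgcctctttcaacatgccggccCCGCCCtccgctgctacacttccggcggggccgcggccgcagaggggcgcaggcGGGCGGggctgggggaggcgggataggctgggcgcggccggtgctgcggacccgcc
Rab27b (chr18:65938534-65938833, minus strand): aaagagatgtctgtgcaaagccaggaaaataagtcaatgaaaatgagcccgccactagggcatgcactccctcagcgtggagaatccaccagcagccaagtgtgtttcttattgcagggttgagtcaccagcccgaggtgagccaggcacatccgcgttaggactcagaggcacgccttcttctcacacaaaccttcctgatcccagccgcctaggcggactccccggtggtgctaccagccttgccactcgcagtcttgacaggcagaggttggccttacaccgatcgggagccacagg

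The Lamp1 window held 5 matches to CACGTG, the core of the element bound by the lysosomal regulator TFEB and by other E-box factors. Of 33469 rat promoter windows of the same length, 6.42% held at least 1 such match and 1 held 5 or more. Among the 10 genes, 2 windows held CACGTG, those of Lamp1 and Pdcd6ip. In the list of other lysosome and late endosome genes, 5 of 16 windows (31.2%) held it, and in the list of SNAREs and fusion genes 5 of 15 (33.3%). It stood in 3 of 17 windows of other Rabs, in 1 of 18 of ESCRT genes, and in 0 of 11, 0 of 19 and 0 of 7 of the syndecan and ceramide partners, Rab regulators and raft scaffolds. Flot1 had 4 and Flot2 3 matches to the GC box, which 33.1% of all windows held and 6 of the 9 matched genes held. Rab7a had 1 GC box and 1 CCAAT box, which stood in 37.5% of all windows. The Rab27b window held no match to any of the 4 motifs, and none of the 9 held TATAAA, against 14.2% of all windows. These are letter matches and not sites shown to be bound. The 9 windows held 57% to 69.3% G and C, against a median of 51.7% over all windows. The part of this in the motif counts was not tested.

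Signal was weaker in exosomes than in cells. Averaged over probes and less background, it was 299, 244 and 100.1 for kd exosomes 1 to 3, 108, 173 and 138 for wt exosomes, and 505 to 588 for B12 cells. The arrays labelled kd exosomes did not hold together: arrays 1 and 2 correlated at 0.986 with each other, but at 0.901 and 0.892 with array 3, which correlated at 0.963 to 0.977 with the wt arrays. Erythroid and platelet markers made 0.00228%, 0.00319% and 0.193% of the signal on kd arrays 1 to 3 and 0.0245% to 0.0888% on the wt arrays. Of 14 epithelial markers, 11 or 12 were above background on each kd array and 12 to 14 on each wt array. On the untreated B12 arrays 1 and 2, 8 and 9 of these 14 epithelial markers and 12 and 13 of 16 stroma and fibroblast markers were above background. Among those at background there were the epithelial Epcam, Cldn3, Krt18 and Spint1 and the stromal Pdpn and Thy1. Of 9 leukocyte markers, 0 to 4 were above background on an exosome array and 1 to 3 on a B12 array, while Ptprc, Cd3e and Ms4a1 were at background on all 12. The signal of Cd44, the targeted gene, was 57.8, 44.5 and 17.3 over background in kd exosomes and 61.9, 103 and 59.3 in wt exosomes. After normalization Cd44 was lower on every kd array than on every wt array, with a difference of -1.29 in log2 that did not pass the test (limma, adjusted p = 0.382). It passed without kd array 3 (-1.29, adjusted p = 0.00196) and with array weights (-1.16, adjusted p = 0.000841), and its difference lay between -1.86 and -0.61 over all alternatives. Array 3 was singled out from these data and the weights are estimated from them, so these 2 p-values cannot be taken at face value. The sources used here do not say whether its probe lies in the variant exons.

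Across the 5 groups, normalized together on a log2 scale, 7 of the 10 genes were above background on all 12 arrays. These were Sdcbp, Tsg101, Rab7a, Rab11a, Flot1, Flot2 and Lamp1. Pdcd6ip and Rab27a were above background on all 6 B12 arrays but on 1 of 3 kd and 1 of 3 wt exosome arrays. Rab27b was above background on 2 kd exosome arrays, on no wt exosome array and on 4 of the 6 B12 arrays. Lamp1 had the widest spread, with an SD of 1.59 over the 12 arrays, followed by Rab27a (0.87), Flot1 (0.87) and Rab27b (0.79).

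**Figure D1:**
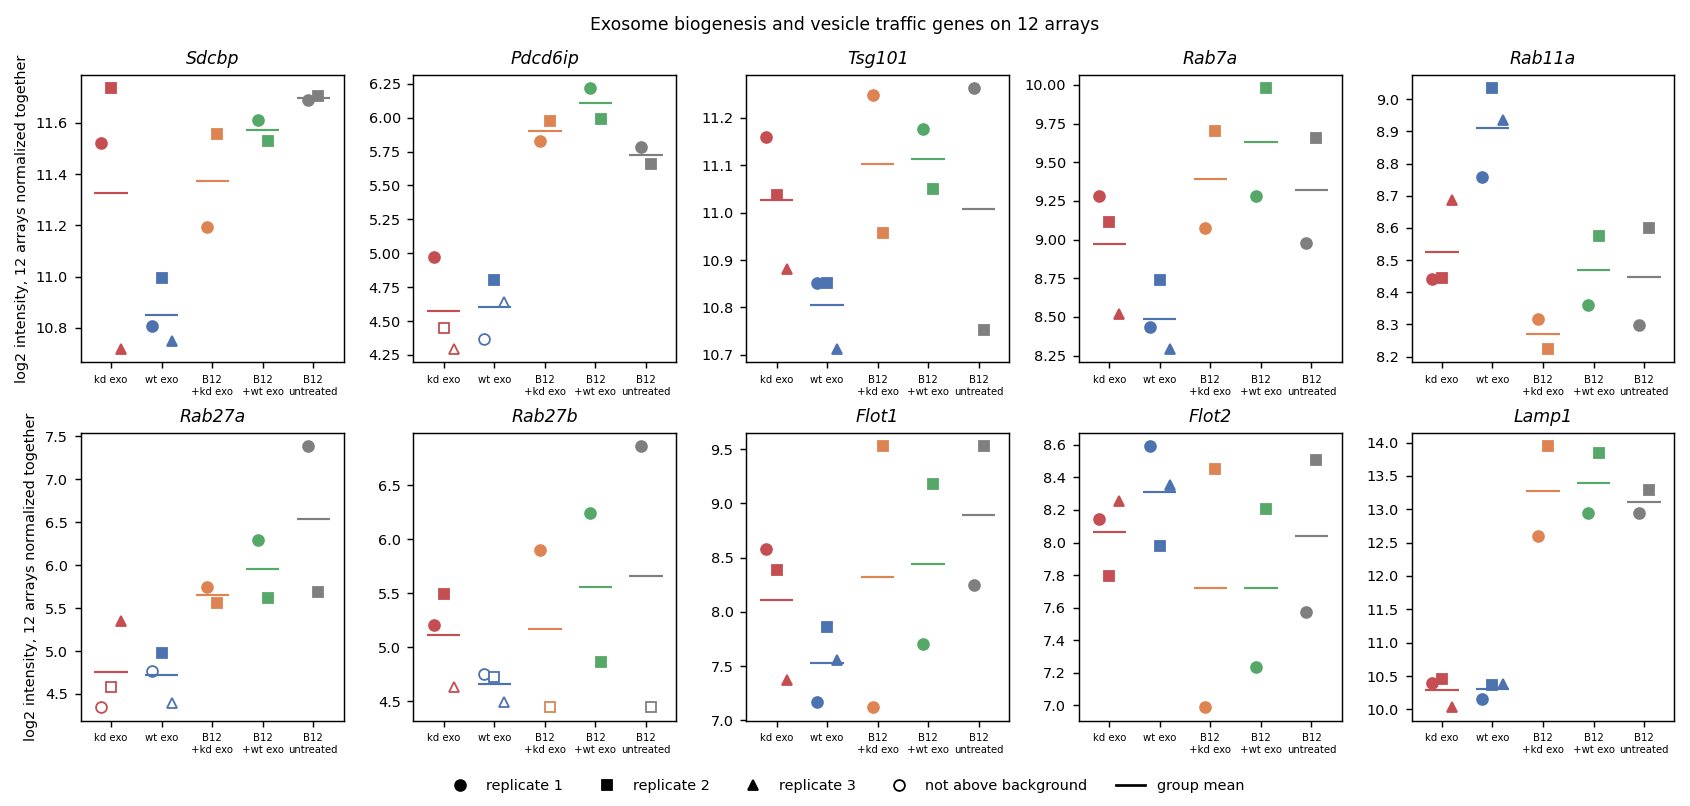
Log2 intensity of each gene on the 12 arrays normalized together (y axis) in the 5 groups (x axis). Each point is an array, its shape gives the replicate number, open points are not above background and lines are group means. Lamp1 lies between 10.03 and 10.46 on the exosome arrays and between 12.59 and 13.95 on the B12 arrays.

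On that scale Lamp1 averaged 10.29 ± 0.23 in kd exosomes and 10.30 ± 0.13 in wt exosomes (SD, n = 3 each), and 13.27 ± 0.96, 13.39 ± 0.64 and 13.12 ± 0.25 in B12 cells with kd exosomes, with wt exosomes and untreated (n = 2 each). The 3 B12 groups overlapped each other and lay wholly above both exosome groups, which also overlapped. The Lamp1 probe ranked at the 94.5th to 95.9th percentile of all probes on exosome arrays and at the 99.1st to 99.7th on B12 arrays. Rab11a, the recycling endosome GTPase, ran the other way: 8.52 ± 0.14 in kd exosomes, 8.91 ± 0.14 in wt exosomes, and group means of 8.27 to 8.47 in B12 cells. Only wt exosomes stood clear of the next group in that order. Flot2 also averaged highest in wt exosomes (8.31 ± 0.31), but all neighbours in its order overlapped, from 8.07 in kd exosomes to 7.72 in B12 cells with exosomes. For Tsg101, group means ran from 10.81 in wt exosomes to 11.11 in B12 cells with wt exosomes, and all neighbours overlapped.

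Sdcbp averaged 11.32 ± 0.54 in kd exosomes and 10.85 ± 0.13 in wt exosomes, and 11.37 to 11.70 in the B12 groups. Untreated B12 cells were clear of the next group, and the other neighbours overlapped. Rab7a, which brings late endosomes to lysosomes, averaged 8.97 in kd exosomes, 8.49 in wt exosomes and 9.32 to 9.63 in the B12 groups, with overlap between all neighbours. Flot1 averaged 8.11 in kd exosomes, 7.53 in wt exosomes and 8.32 to 8.89 in the B12 groups, again with overlap throughout. Pdcd6ip averaged 5.90, 6.11 and 5.72 in B12 cells with kd exosomes, with wt exosomes and untreated, and these 3 groups did not overlap each other or the exosomes (4.57 and 4.61). Rab27a averaged 5.65, 5.96 and 6.54 in the same 3 B12 groups and 4.76 and 4.71 in kd and wt exosomes. Its B12 groups overlapped each other and were clear of the exosomes.

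The comparison of kd with wt exosomes asks whether loss of CD44v in the donor cells changes the RNA of the exosomes they shed. On exosome arrays normalized together, Sdcbp measured 10.50, 10.74 and 9.59 in kd exosomes 1 to 3, against 9.70, 9.90 and 9.64 in wt exosomes. Rab7a measured 8.12, 7.94 and 7.36 in kd exosomes, against 7.28, 7.57 and 7.15 in wt exosomes. Flot1 measured 7.42, 7.23 and 6.32 in kd exosomes, against 6.15, 6.75 and 6.48 in wt exosomes. In all 3 genes kd arrays 1 and 2 lay above every wt array. Kd array 3 lay within the wt range for Rab7a and Flot1 and just below it for Sdcbp. Tsg101 measured 10.10, 9.95 and 9.77 in kd exosomes, against 9.75, 9.75 and 9.59 in wt exosomes. Rab11a measured 7.29, 7.29 and 7.52 in kd exosomes, against 7.59, 7.86 and 7.76 in wt exosomes. For these 2 genes the groups did not overlap, Tsg101 being higher and Rab11a lower in kd exosomes. Flot2 measured 7.02, 6.69 and 7.11 in kd exosomes, against 7.43, 6.85 and 7.21 in wt exosomes, with overlap. Lamp1 measured 9.26, 9.33 and 8.88 in kd exosomes, against 9.01, 9.24 and 9.26 in wt exosomes, also with overlap. In bulk RNA, fewer vesicles of a kind and less RNA per vesicle cannot be told apart.

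None of the 7 genes in this fit passed the test, nor did any of the 8699 probes tested (limma, 0% called; 13% had an unadjusted p under 0.05). The fitted differences, kd minus wt in log2 with SE, were 0.53 ± 0.29 for Sdcbp, 0.25 ± 0.14 for Tsg101, 0.47 ± 0.25 for Rab7a and 0.53 ± 0.35 for Flot1. They were -0.37 ± 0.18 for Rab11a, -0.23 ± 0.24 for Flot2 and -0.01 ± 0.18 for Lamp1. Adjusted p ran from 0.403 to 0.981. Of the 7 genes, 1 was separated upward and 1 downward, against 6.43% and 11.5% of all probes. The median difference of the 7 was 0.25, against -0.04 for all probes. All 95% intervals held 0. Median scaling in place of quantile normalization raised the median of all probes to 0.36 and turned Rab11a, Flot2 and Lamp1 to differences above 0, at 0.34, 0.43 and 0.75. Relative to that median they were -0.01, 0.08 and 0.40.

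**Figure D2:**
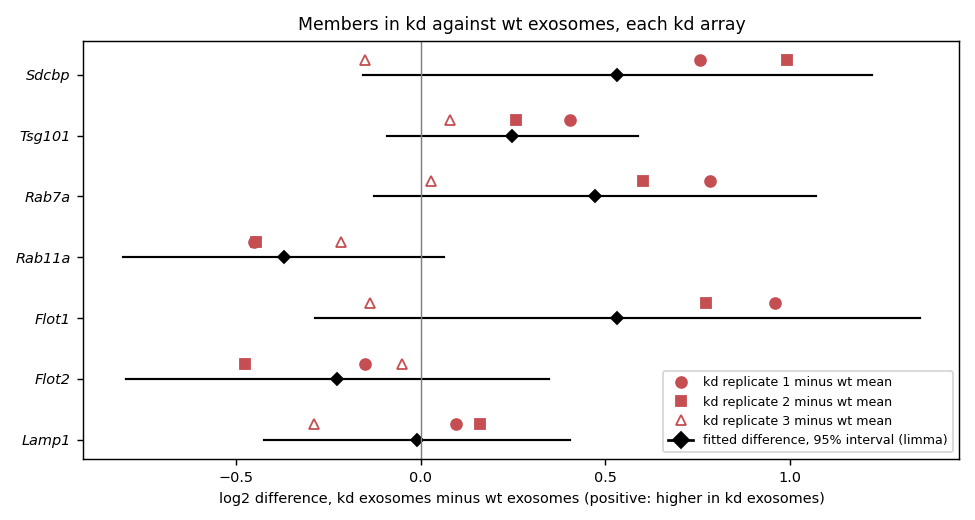
Log2 difference between kd and wt exosomes (x axis) for the 7 genes in the fit (y axis). Red points are single kd arrays minus the wt mean, with array 3 open, and black diamonds are the limma difference with its 95% interval. For Sdcbp the arrays lie at 0.76, 0.99 and -0.15, and for Flot1 at 0.96, 0.77 and -0.14.

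The result rested on kd array 3, which was singled out because it stood apart in these same data. Leaving it out narrows the spread within the kd group, so the adjusted p-values that follow cannot be taken at face value. The same holds for array weights, which are estimated from these arrays. Without it, 4308 of 10169 probes were called (42.4%, of which 25% of all probes higher and 17.3% lower), and Sdcbp (0.86, adjusted p = 0.000329), Rab7a (0.70, 0.00723), Flot1 (0.90, 0.00985) and Tsg101 (0.33, 0.0246) were among those higher. Rab11a was among those lower (-0.45, adjusted p = 0.0289). With limma array weights over all 6 arrays, 4181 probes (48.1%) were called, and these 5 genes passed with the same signs. Flot2 and Lamp1 passed under neither setting. Kd arrays 1 and 2 also had the most signal and the least erythroid marker signal of the 6 exosome arrays. The part of array brightness and of these markers in the result was not tested.

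Pdcd6ip, Rab27a and Rab27b were outside the exosome fit, because no group had them above background on all of its arrays. The signal of Pdcd6ip was 15.7, 2.62 and -2.51 over background in kd exosomes, against 0.096, 8.70 and 5.52 in wt exosomes. The signal of Rab27a was 1.52, 4.84 and 11.6 in kd exosomes, against 6.62, 11.4 and 0.902 in wt exosomes. The signal of Rab27b was 20.6, 18.1 and 3.88 in kd exosomes, against 6.43, 7.47 and 3.04 in wt exosomes. Rab27b is thus the only gene of the 10 that was above background in 1 exosome group and not in the other, on kd arrays 1 and 2. Against a bound for wt exosomes, its mean over the 3 kd arrays was 1.21-fold higher. The bound takes, for each wt array, the higher of the gene's own value and the lowest value above background. Kd array 3 was not above background, so 1.21-fold is not a least difference. As a share of the array mean signal, Rab27b was 6.06% ± 1.91% in kd and 4.15% ± 1.87% in wt exosomes (SD, n = 3 each).

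The other genes of these pathways were taken in 7 lists. In the exosome comparison no gene of any list passed the test, and the counts of separated genes stand against 6.43% of all probes upward and 11.5% downward. Of 19 measured ESCRT and sorting genes, 2 were separated upward and 6 downward, and the 2 with the smallest p were Chmp1a, an ESCRT-III subunit (-1.05), and Mvb12a, an ESCRT-I subunit (-0.54). Of 17 other Rab GTPases, 0 were separated upward and 4 downward, among them Rab1a of the early secretory route (-0.85) and Rab8a (-0.52). Of 13 Rab regulators and effectors, 4 were separated upward and 0 downward, and Rabgef1, an exchange factor for Rab5, differed by 0.77. Of 15 SNAREs and fusion genes, 0 were separated upward and 3 downward, among them the endosomal SNAREs Vamp8 (-0.55) and Stx12 (-0.63). Of 16 lysosome and late endosome genes, 1 was separated upward and 2 downward, Lamtor1 of the Ragulator complex (-0.53) and the hydrolase subunit Hexa (-0.61). Cavin3 (-0.40) was the only separated gene among 5 raft and caveola scaffolds, and none of 7 syndecan, syntenin and ceramide partners was separated, Sdc4 at -0.91 and Cers2 at 0.45 having the smallest p. All these carried an adjusted p of 0.382 or more.

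The 3 comparisons among B12 cells ask whether exosomes, and the CD44v status of their donor, change the stroma cells that were given them. No gene of the 10 passed the test in any of them, and no probe of 11631 did (limma, 0% called in each; 2.45%, 1.99% and 2.8% had an unadjusted p under 0.05 for kd exosomes against untreated, kd against wt exosomes, and wt exosomes against untreated). The 2 comparisons with untreated cells share the untreated arrays. These fits held no replicate number. With it added, 671, 389 and 650 probes had an unadjusted p under 0.05 (limma), against 285, 231 and 326 without it. Again no probe passed. All values that follow are log2 intensities with the 6 B12 arrays normalized together, given for replicate numbers 1 and 2.

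Sdcbp measured 12.25 and 12.57 with kd exosomes, 12.62 and 12.55 with wt exosomes and 12.70 and 12.71 untreated. Both treated groups lay below the untreated cells, by -0.29 and -0.12. Pdcd6ip measured 6.42 and 6.64 with kd exosomes, 6.98 and 6.66 with wt exosomes and 6.36 and 6.18 untreated. Both treated groups lay above the untreated cells, by 0.26 and 0.55. Groups did not overlap in 22.2% of all probes for kd exosomes against untreated and in 24.2% for wt exosomes against untreated, so 2 such genes of 10 is near that share. Tsg101 measured 12.30 and 12.05 with kd exosomes, 12.24 and 12.13 with wt exosomes and 12.31 and 11.87 untreated, with overlap of all groups. Rab11a measured 9.47 and 9.36 with kd exosomes, 9.51 and 9.74 with wt exosomes and 9.44 and 9.76 untreated. For kd against wt exosomes the groups of Rab11a did not overlap (-0.21), nor did those of Pdcd6ip (-0.29), which is 2 of 10 genes against 20.5% of all probes.

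Rab27a, a GTPase that docks multivesicular bodies at the plasma membrane, measured 6.30 and 6.03 with kd exosomes, 7.08 and 6.11 with wt exosomes and 8.45 and 6.21 untreated. Array 1 of the untreated cells was the highest, and the differences from untreated were -2.15 for kd and -1.37 for wt exosomes within number 1, but -0.18 and -0.10 within number 2. The fitted difference was -1.17 ± 0.80 (SE) for kd exosomes and -0.73 ± 0.80 for wt exosomes against untreated, with adjusted p above 0.99 in both. Without array 1 of the untreated cells the wt exosome difference turned to 0.39 and the kd exosome difference was -0.05. Those values set untreated number 2 alone against treated arrays of both numbers, so number and treatment cannot be told apart in them.

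For kd against wt exosomes all 10 differences lay below 0, between -0.51 for Rab27b and -0.01 for Tsg101, while 50.2% of all probes lay above 0. The 10 values share the same 4 arrays, so they are not separate observations of the treatment. Within number 2, Sdcbp, Flot1, Flot2 and Lamp1 had differences above 0 (0.02, 0.33, 0.26 and 0.10). The 95% intervals were wide: for Flot1 the interval ran from -2.82 to 2.48 and for Sdcbp from -0.62 to 0.27. They come from the fit without the replicate number, so their width includes the spread between the numbers. In the 7 pathway lists no gene passed the test in any of the 3 comparisons. Among lysosome genes, 17 of 20 differences lay above 0 for wt exosomes against untreated, as did 6047 of all 11631 probes. Their median was 0.19 against 0.01 for all probes. These genes share the same 4 arrays, and in the raft and caveola list 0 of 6 lay above 0. The lysosome gene with the smallest p was Gusb, which codes for beta-glucuronidase (log2 difference 0.40, unadjusted p = 0.0844, limma). For kd exosomes against untreated 13 of the 20 lysosome genes lay above 0, as did 5964 of all 11631 probes, with a median of 0.07 against 0.01 for all probes.

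**Figure D3:**
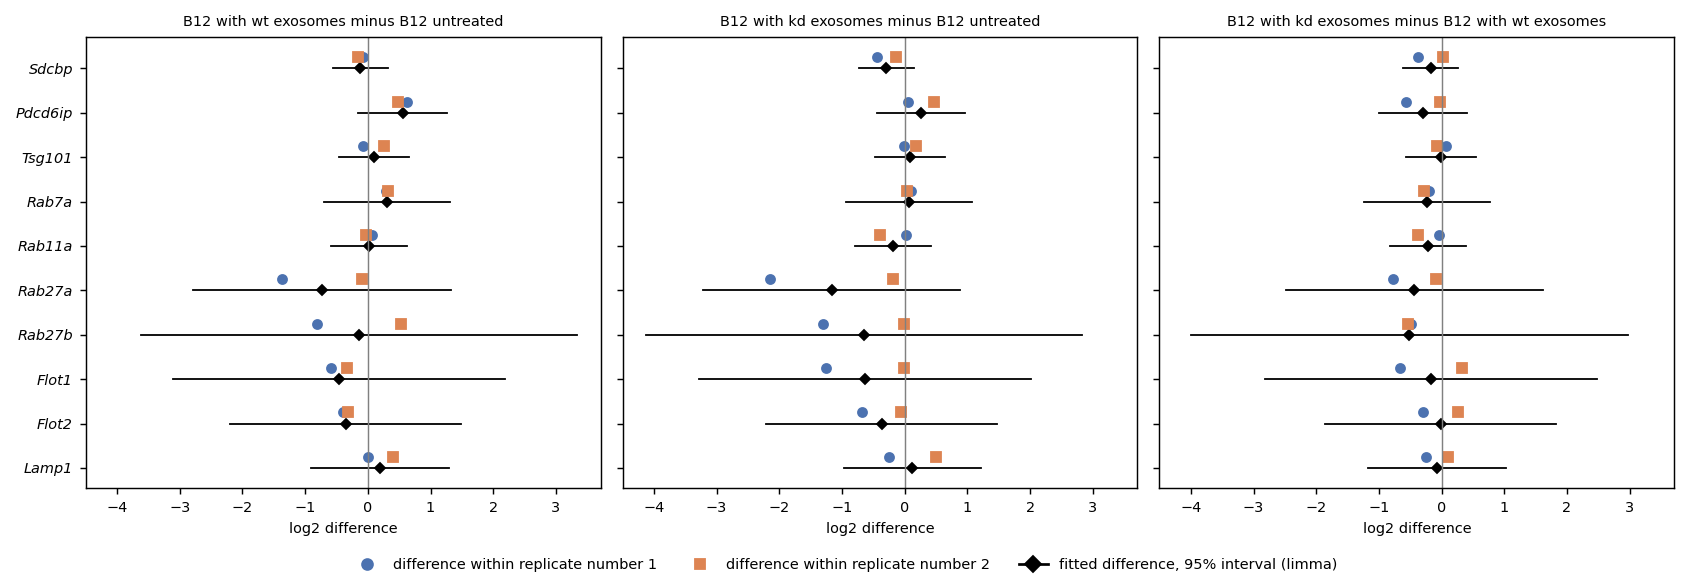
Log2 differences between B12 groups (x axis) for the 10 genes (y axis), 1 panel for each comparison. Coloured points are differences within replicate number 1 or 2. Diamonds are the limma difference with its 95% interval, from fits without the replicate number. All intervals hold 0, and those of Rab27b, Flot1, Rab27a and Flot2 are the widest.

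The B12 arrays separated by replicate number more than by treatment. Arrays of 1 number correlated in their deviations from the group means at 0.773 to 0.799. What the number stands for is not stated. In the fit with number and treatment together, 2284 of 11631 probes differed between number 2 and number 1 (limma, 19.6% called, 9.41% higher and 10.2% lower), a contrast added after the data were seen. The arrays of a number are not known to be separate cultures. If they share a culture, the contrast has no replication, and its p-values measure only the spread between arrays. Of the 10 genes, 4 were higher in number 2, namely Flot1, Flot2, Lamp1 and Rab7a, and 1 was lower, Rab27b. The median difference of the 10 was 0.12, against -0.02 for all probes.

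Flot1 measured 10.68, 10.35 and 10.69 on the number 2 arrays (with kd exosomes, with wt exosomes, untreated), against 8.13, 8.80 and 9.39 on the number 1 arrays in the same order. Flot2 measured 9.61, 9.34 and 9.66 on the number 2 arrays, against 7.97, 8.26 and 8.65 on the number 1 arrays. Neither flotillin overlapped between the numbers. The differences were 1.80 ± 0.26 (SE) for Flot1 (adjusted p = 0.00636) and 1.24 ± 0.18 for Flot2 (adjusted p = 0.00702). Lamp1 measured 14.53, 14.43 and 14.04 on the number 2 arrays, against 13.47, 13.71 and 13.72 on the number 1 arrays. Rab7a measured 10.85, 11.13 and 10.81 on the number 2 arrays, against 10.25, 10.45 and 10.16 on the number 1 arrays. Lamp1 and Rab7a were thus also apart, by 0.70 ± 0.15 (adjusted p = 0.0278) and 0.65 ± 0.12 (adjusted p = 0.0165). Rab27b measured 4.54, 5.08 and 4.54 on the number 2 arrays, against 6.53, 7.01 and 7.82 on the number 1 arrays. The difference for this secretory Rab was -2.40 ± 0.31 (adjusted p = 0.00474), but only 1 of the 3 number 2 arrays was above background, so the size rests mostly on background values. It passed in all 13 alternatives, with differences from -2.64 to -0.72, the last with the deposited value table. Rab27a (-1.16, adjusted p = 0.0883) and Tsg101 (-0.27, adjusted p = 0.189) were also lower on every number 2 array but did not pass. Sdcbp (0.09), Pdcd6ip (-0.10) and Rab11a (0.15) overlapped.

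**Figure D4:**
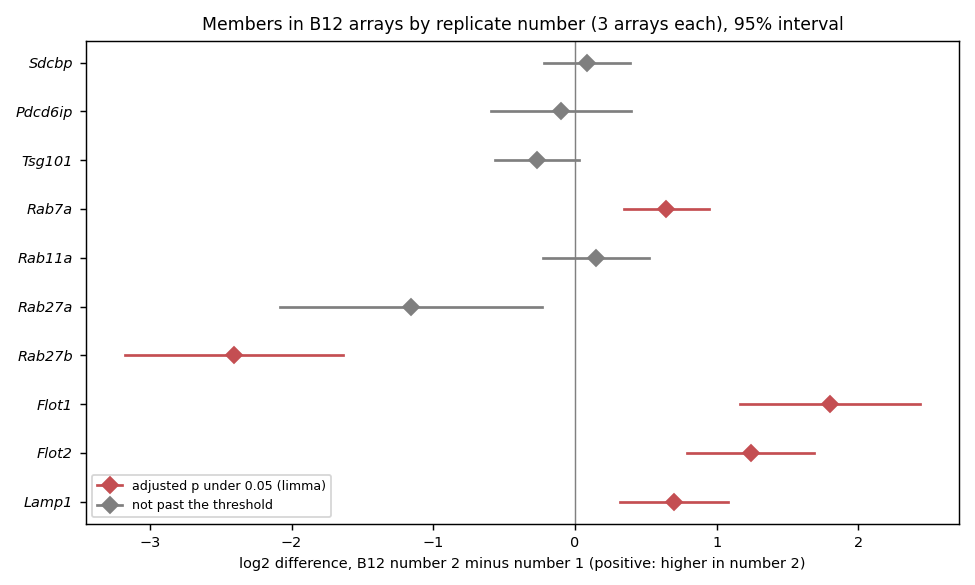
Log2 difference between B12 arrays of replicate number 2 and number 1 (x axis, 3 arrays each) for the 10 genes (y axis), with 95% intervals from limma. Red marks an adjusted p under 0.05: Flot1 at 1.80, Flot2 at 1.24, Lamp1 at 0.70, Rab7a at 0.65 and Rab27b at -2.40.

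Cell type markers moved with the number. Epithelial markers summed to 0.0591% to 0.0985% of the signal on number 2 arrays, against 0.31% to 0.529% on number 1 arrays, with 7 to 9 and 8 to 10 of 14 above background. Stroma and fibroblast markers summed to 1.06% to 1.24% on number 2 arrays, against 0.158% to 0.299% on number 1 arrays, with 13 and 12 or 13 of 16 above background. The defining epithelial marker Epcam was at background on all 6 arrays. Cd44 was 1.41 higher in number 2 (adjusted p = 0.00237). The part of these markers in the differences of the 10 genes was not tested. Leaving out 1 B12 array at a time moved the count of called probes to between 1289 and 2296. Lamp1 and Rab7a lost their call without either array of the cells with wt exosomes or of those with kd exosomes, with differences of 0.51 to 0.69 and 0.62 to 0.67. Lamp1 also lost it with no filter on detection and with cyclic loess (adjusted p = 0.0896 and 0.0509).

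Over all probes 9.41% were called higher and 10.2% lower in number 2, and counts in several lists were near or below those shares. Of the other pathway genes, 1 of 21 ESCRT genes was higher in number 2, the ATPase Vps4a (0.77), and 0 were lower. Of 11 syndecan, syntenin and ceramide partners, 1 was higher, the syndecan Sdc2 (2.87), and 3 were lower, the neutral sphingomyelinase Smpd3 (-4.65), the heparanase Hpse (-2.38) and the syndecan Sdc1 (-0.77). Of 19 other Rabs, Rab31 (1.70) and Rab18 (0.51) were higher and Rab3d (-0.66) was lower. Of 17 SNAREs and fusion genes, Nsf (1.22) and Vamp3 (1.00) were higher and Vamp8 (-0.81) was lower. Of 20 lysosome genes, Lamtor1 (0.88) was higher, while the mannose 6-phosphate receptor Igf2r (-3.40) and the proton pump subunit Atp6v1b2 (-0.56) were lower. Cav2 (1.04) was higher and Cavin2 (-1.18) lower among 6 raft and caveola scaffolds, and Madd (-1.21), an exchange factor for Rab3 and Rab27, was the 1 of 16 Rab regulators that passed.

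Wt exosomes were set against untreated B12 cells, on the scale of the 12 arrays normalized together, to describe which of these transcripts were scarce in exosomes. Vesicle against cell and ASML against B12 origin cannot be told apart here, since no ASML cells are among the samples. Of the 10 genes 4 passed as lower in exosomes and 0 as higher, where 17.1% of 12231 probes were called lower and 18.2% higher (limma, 35.3% in all). Of the 4, Pdcd6ip and Rab27a were above background on 1 of 3 wt exosome arrays and entered the test through the B12 cells, where they were higher, so the count is no support for a difference of the 10 genes as a group. Of the called probes 12% were higher under median scaling, against 51.5% with quantile normalization, and the median of all probes was -1.18, against 0.05.

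Lamp1 measured 10.15, 10.37 and 10.39 in wt exosomes, against 12.94 and 13.29 in untreated B12 cells. The difference was -2.81 ± 0.37 (SE), with an adjusted p of 0.000375, and Lamp1 was called in all 22 alternatives, with differences between -4.67 and -2.68. Rab27a measured 4.77, 4.98 and 4.40 in wt exosomes, of which 1 was above background, against 7.39 and 5.68 in B12 cells (-1.82 ± 0.50, adjusted p = 0.0186). Without array 1 of the untreated B12 cells the difference was -0.94 (adjusted p = 0.177), and with the deposited value table it was -0.62 (adjusted p = 0.0878). Pdcd6ip measured 4.37, 4.80 and 4.64 in wt exosomes, of which 1 was above background, against 5.79 and 5.66 in B12 cells (-1.12 ± 0.29, adjusted p = 0.0140). Sdcbp measured 10.81, 10.99 and 10.75 in wt exosomes, against 11.69 and 11.71 in B12 cells (-0.85 ± 0.26, adjusted p = 0.0299). In all 4 genes every exosome array lay below both cell arrays. The calls of Pdcd6ip, Rab27a and Sdcbp were lost in 4, 4 and 5 of their alternatives, among them each setting that left out array 1 of the untreated cells, and all kept their sign. With the deposited value table the difference of Pdcd6ip was -0.22.

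Rab7a measured 8.44, 8.74 and 8.29 in wt exosomes, against 8.98 and 9.66 in B12 cells, a difference of -0.83 that did not pass (adjusted p = 0.0793), although the groups did not overlap. It passed in 5 alternatives, among them the fit of these 2 groups alone (-0.87, adjusted p = 0.0368). Flot1 measured 7.17, 7.86 and 7.56 in wt exosomes, against 8.25 and 9.53 in B12 cells (-1.36, adjusted p = 0.154), also without overlap. In all, 6 of the 10 genes were lower on every exosome array, against 31.8% of all probes. Of these, Pdcd6ip and Rab27a entered the test through the B12 cells, so this count too is no support for a difference of the 10 genes as a group. Rab27b was at background in wt exosomes and above it on 1 of 2 B12 arrays (6.86 and 4.45). With wt exosomes at their bound it was 1.94-fold lower there by the means. That value is not a least difference, since array 2 of the untreated cells was at background. It rests on array 1 of the untreated cells, without which the fitted difference was 0.21. Rab11a measured 8.76, 9.04 and 8.94 in wt exosomes, against 8.30 and 8.60 in B12 cells (0.46, adjusted p = 0.117). Its groups did not overlap, with exosomes higher, as in 35% of all probes. Flot2 (0.27) and Tsg101 (-0.20) overlapped. Under median scaling Rab11a and Flot2 turned to -1.87 and -1.99 and passed (limma, adjusted p = 0.0166 and 0.0283), which is -0.69 and -0.81 relative to the median of all probes. Tsg101 and Flot1 also passed under median scaling (adjusted p = 0.00698 and 0.0121), Tsg101 with cyclic loess as well (0.0363) and Flot1 in the fit of these 2 groups alone (0.0341). With median scaling Lamp1 was -3.49, Flot1 -2.30, Rab7a -1.96 and Sdcbp -1.76 relative to the median.

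**Figure D5:**
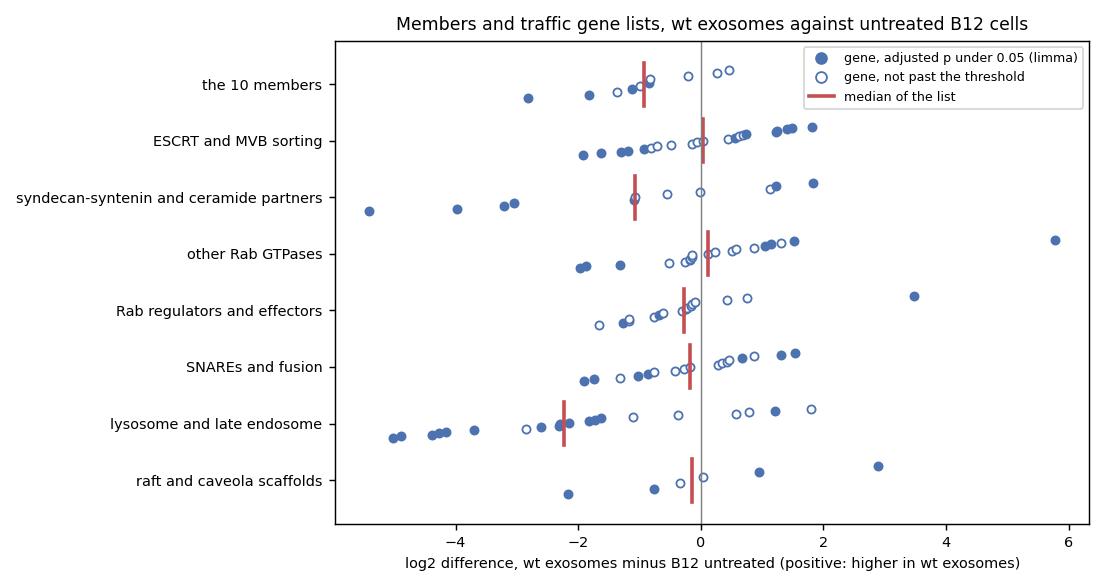
Log2 difference between wt exosomes and untreated B12 cells (x axis) for the 10 genes and the 7 pathway lists (y axis). Each point is a gene, filled where its adjusted p is under 0.05, and red bars are medians. The lysosome list has its median at -2.23, and the members theirs at -0.92.

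In this comparison 13 of 20 other lysosome genes were lower and 1 higher in wt exosomes, with a median of -2.23 against 0.05 for all probes. Over all probes 17.1% were called lower and 18.2% higher. Some of these genes, such as Glb1, were at background in wt exosomes and entered the test through the B12 cells, where they were higher. The count is therefore no support for a difference of the list as a group. Ctsl, a cysteine protease, differed by -4.38, and Npc2, a cholesterol carrier, by -2.30. Psap, the precursor of the saposins, had a fitted difference of -4.88, but only 1 of 3 wt exosome arrays was above background, so the size rests partly on background values. Glb1, the lysosomal galactosidase, was at background in wt exosomes and at least 12.1-fold lower there than in untreated B12 cells by the group means. Lamp2, the closest relative of Lamp1 in the lists, differed by -2.61 (adjusted p = 0.000312). The 1 gene that was higher was Lamtor2 (1.22), of the Ragulator complex on the lysosomal surface. Lamp2 and Lamtor2 were named after their values were seen. The median over the list was the same with 3 genes at their bound. A gene that stays on its side of the median cannot move it, so this is no check on background values.

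The lists of the sorting machinery split in both directions, where 18.2% of all probes were called higher and 17.1% lower. Of 21 ESCRT genes, 7 were higher in wt exosomes, among them Chmp4c (1.82), Snf8 (1.41) and Chmp2a (0.74), and 5 were lower, among them Vps36 (-1.30). Of 11 syndecan, syntenin and ceramide partners, 2 were higher, among them the GTPase Arf6 (1.84), and 5 were lower, among them acid sphingomyelinase Smpd1 (-3.97) and the ceramide synthase Cers2 (-3.22). Sdc2 was at background in wt exosomes and at least 36-fold lower there by the group means. All folds given here as at least compare means, so the fold against a single untreated array can be smaller. Sdc2 differed by 2.87 in log2 between the replicate numbers. Of 19 other Rabs, 4 were higher and 3 lower. Rab25, an epithelial relative of Rab11a, was 10.90 in wt exosomes against 5.12 in B12 cells, and Rab5c (1.14) and Rab4a (1.51) of early and recycling endosomes were also higher, while Rab7b was at least 3.31-fold lower. Of 16 Rab regulators and effectors, 1 was higher, the Rab27 effector Unc13d (3.47), and 2 were lower, Rabggtb (-0.68) and the Rab7 effector Rilp (at least 1.97-fold). Of 17 SNAREs and fusion genes, 3 were higher, among them Vamp5 (1.54), and 4 were lower, among them Stx7 (-1.91) and the tethering subunits Vps16 (-0.86) and Vps33a (at least 1.42-fold). Of 6 raft and caveola scaffolds, Cav2 (2.89) and Stoml2 (0.94) were higher, and Cavin3 (-0.76) and Cavin1 (at least 3.26-fold) were lower.

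For the 4 genes with the largest SD over the 12 arrays, the probes most like them were found by Pearson correlation over these 12 arrays. The arrays of a group share their source, and most of the likeness to Lamp1 is the step between exosomes and cells, so these values are a description. Lamp1 was most like Lamp2 (0.996), Tspyl2 (0.996) and Adcy6 (0.995), with 0.969, 0.988 and 0.964 within the 6 B12 arrays and 0.828, 0.678 and 0.411 within the 6 exosome arrays. Rab27a was most like Dhrs7b (0.956), Slurp1 (0.952) and Slc19a2 (0.946). Flot1 was most like Pxylp1 (0.951), Zmynd11 (0.944) and Gja4 (0.927). Rab27b was most like Mbip (0.968), Calm2 (0.963) and Inpp5j (0.958), all of which correlated with it at 0.926 or more in each set of 6 arrays. Rab27a and Rab27b were each above background on 2 of the 6 exosome arrays, so their likeness there is mostly over background values.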

How the data were processed

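Total RNA was measured on 12 Illumina arrays in 5 groups taken from the labels. The members and gene lists were chosen with earlier results of these data known. Per the file headers, the authors deposited a mean intensity that was not normalized, together with a p-value, in each array's columns. The deposited p-value was small on both sides of background, so it was read as two-sided. A probe was above background where it was under 0.05 and the intensity exceeded the median of probes with p above 0.9. Of 23365 rows, 848 had no identifier and 571 shared one, and these were left out. No source used here names the software behind these values. A value table of intensities that the authors normalized by a method not stated was used for 1 alternative.

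The intensities were corrected for background with an offset of 16, quantile normalized and log2 transformed (neqc, limma 3.58.1, R 4.3.3), separately for 6 exosome and 6 B12 arrays, and for all 12 together where exosomes and cells were compared. A probe had to be above background on each array of some group, and was then tested with limma (lmFit, eBayes with trend, two-sided) and Benjamini-Hochberg adjustment over all probes, at 0.05. The fits had 4, 3 and 7 residual degrees of freedom. The number of arrays limits the precision. The fit was run on simulated data with independent noise for each probe. The simulation held no replicate-number effect and no array that stood apart, so it does not cover those features of these arrays. Named pathway genes are, for each list and comparison, up to 4 that passed, filled up to 2 by smallest p. Genes of the replicate-number contrast are all those of the lists that passed.

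Same-numbered B12 arrays deviated together from their group means (0.773 to 0.799), which with 2 arrays a group is a hint from the data and not from the labels. In the exosomes they correlated at -0.20, 0.46 and 0.32 and were not treated as pairs. Alternatives were the background correction, normalization, detection filter, value table, array weights, arrays fitted together, a replicate block, and leaving out each array.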

Additional observations from a re-analysis of the deposited data

Results flagged for a closer look

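Rab27b, a Rab GTPase of secretory docking, was above background on 2 of 3 kd exosome arrays and on 0 of 3 wt exosome arrays, although it was outside the fit of the exosome comparison. The 2 arrays are kd replicates 1 and 2, which also stood apart in brightness. The difference between the groups was not tested.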

How the results depend on the processing

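Kd against wt exosomes called 0 probes, 4181 with array weights, and 0 to 4308 when 1 array was left out, the highest without kd replicate 3. Wt exosomes against untreated B12 cells called 4316, against 2533 with probes above background on all arrays and 2335 to 5942 when 1 array was left out. B12 number 2 against number 1 called 2284, and 1289 to 2296 when 1 array was left out. With the replicate block, the B12 treatment comparisons and kd against wt exosomes each still called 0 probes, and wt exosomes against untreated B12 cells 4304. Signs of values that did not pass turned under some settings. For kd against wt exosomes, median scaling gave Rab11a 0.34, Flot2 0.43 and Lamp1 0.75, and Lamp1 was 0.0049 with cyclic loess, 0.0308 with the deposited value table and 0.10 with array weights. Rab27b with wt exosomes against untreated was 0.14 with the 12 arrays together. For B12 with kd against wt exosomes, Flot2 was 0.0084 without background correction and 0.0112 with the deposited value table, and Tsg101 was 0.0015 with cyclic loess. For wt exosomes against untreated B12 cells, median scaling gave Rab11a -1.87 and Flot2 -1.99, both of which then passed (limma, adjusted p = 0.0166 and 0.0283). Leaving out 1 array turned other signs. Except in the number contrast, these fits held no replicate number, so leaving out 1 array of a compared B12 group leaves 1 number there. Replicate number and the group difference cannot be told apart in those values. Within numbers 1 and 2, some differences kept their sign, such as Rab7a with wt exosomes against untreated (0.29 and 0.32). Others did not, such as Rab27b (-0.81 and 0.53). The lowest and highest log2 differences with 1 array left out follow. For kd exosomes minus wt exosomes these were Lamp1 -0.0938 to 0.13. For B12 with wt exosomes minus B12 untreated these were Rab7a -0.0377 to 0.65, Rab11a -0.14 to 0.18, Rab27a -1.84 to 0.39, Rab27b -1.76 to 1.51, Tsg101 -0.13 to 0.32, Flot1 -1.23 to 0.31, Flot2 -0.90 to 0.19, Lamp1 -0.16 to 0.55. For B12 with kd exosomes minus B12 untreated these were Rab7a -0.26 to 0.40, Rab27b -2.27 to 1.00, Lamp1 -0.41 to 0.65, Tsg101 -0.14 to 0.31, Flot1 -1.90 to 0.64, Flot2 -1.19 to 0.45. For B12 with kd exosomes minus B12 with wt exosomes these were Tsg101 -0.13 to 0.12, Rab27a -0.91 to 0.048, Rab27b -1.52 to 0.49, Rab7a -0.58 to 0.11, Flot1 -1.44 to 1.11, Flot2 -0.83 to 0.80, Lamp1 -0.61 to 0.45. For wt exosomes minus B12 untreated these were Tsg101 -0.47 to 0.0524, Rab27b -2.12 to 0.21, Flot2 -0.20 to 0.73. For B12 number 2 minus number 1 these were Pdcd6ip -0.25 to 0.0136, Sdcbp -0.0319 to 0.17. The cause was not tested. A chip block was not run, since there was 1 chip. Genes near background, Rab27a, Rab27b and Pdcd6ip in exosomes, are limited by their signal.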

Other observations

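Correlations between some of the genes differed between the sets of arrays. Over the 6 B12 arrays Flot1 and Flot2 correlated at 0.995, and over the 6 exosome arrays at -0.74. Tsg101 and Rab7a correlated at -0.71 over the B12 arrays and at 0.95 over the exosome arrays, where kd arrays 1 and 2 stand apart. In each set of 6 the arrays share groups and, in B12 cells, a replicate number, so these values describe the arrays and carry no test.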
